A study of Homo sapiens with 27 samples.

Results

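The pre-B cell receptor is the first receptor that a B-cell precursor makes from a rearranged heavy chain. In place of a light chain, the immunoglobulin mu heavy chain pairs with a surrogate light chain made of the VPREB1 and IGLL1 proteins, while VPREB3 is a related protein that associates with newly made chains inside the cell. CD79A and CD79B carry the signal across the membrane. The Src-family kinase LYN and the kinase SYK act on them, after which the adaptor BLNK brings the kinase BTK and the phospholipase PLCG2 together. These 10 genes were taken by name (VPREB1, VPREB3, IGLL1, CD79A, CD79B, SYK, BLNK, BTK, LYN and PLCG2), out of 60619 gene identifiers in the count tables.

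Their RNA was followed in REH, a human cell line from an acute lymphoblastic leukemia of B-cell precursors with the ETV6/RUNX1 fusion, harvested after 72 h in medium alone or with an LNA GapmeR at 10 µM. LNA GapmeRs are short antisense oligonucleotides whose locked nucleic acid ends raise the affinity for RNA and whose DNA centre recruits RNase H. Medium (n = 2) and a non-targeting GapmeR, NTC (n = 3), were the 5 control samples, and 8 GapmeRs were directed in pairs against the long non-coding RNAs lnc-NKX2-3-1 (GapmeR1 n = 2, GapmeR2 n = 3), lnc-RTN4R-1 (3 and 3), lnc-TIMM21-5 (3 and 3) and lnc-ASTN1-1 (3 and 2), which gives 10 groups and 27 samples. All groups came from the single line REH, so their samples are cultures of 1 genotype, and replicate numbers 1 to 3 were treatments on different days per the methods of the study.

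The libraries held 14627110 to 22750945 counts (median 18776820), of which 16268 genes passed the filter on low counts. Each target was lowest in its own groups, which checks the labels. In CPM (counts scaled to a common library size), ENSG00000228778 (lnc-NKX2-3-1) was at no more than 0.183 in the 5 libraries with its GapmeRs, near the floor of 3 counts, which is 0.132 to 0.205 CPM across the libraries, against 0.326 to 1.26 in the controls. LINC02891 (lnc-RTN4R-1) was at a mean of 5.27 against 20.9. NETO1-DT (lnc-TIMM21-5) was at 0.0452 to 0.503 against 1.08 to 2.19, with some libraries under that floor. ENSG00000227579, paired with lnc-ASTN1-1 in the study's list, was at a mean of 11.4 against 25.3, although no perfect site for lnc-ASTN1-1 GapmeR1 was found in the annotated gene. It also fell with lnc-RTN4R-1 GapmeR1 (log2 fold change −0.59, edgeR adjusted p = 0.000231) and GapmeR2 (−0.66, 1.86e-05), and with lnc-NKX2-3-1 GapmeR1 (−0.48, 0.00145). LINC02891 also fell with lnc-NKX2-3-1 GapmeR1 (−0.41, edgeR adjusted p = 0.0421), so these targets did not move only with their own GapmeRs. Of 12 markers of B-cell precursors, 11 were expressed, among them PAX5 at a mean of 731 CPM and RAG1 at 1681 CPM, and VPREB1 was the exception. Their summed level was 5352 to 6150 CPM in the controls and 6440 to 6852 CPM with lnc-NKX2-3-1 GapmeR1. The 5 T cell markers summed to at most 0.535 CPM in any library. Among 6 myeloid markers, ELANE was at 0 in every library and LYZ at no more than 6 counts, but MPO was present at a mean of 136 CPM. The myeloid sum was 89.8 to 139 CPM in the controls, 166 to 200 CPM with lnc-NKX2-3-1 GapmeR1 and 298 to 454 CPM with lnc-RTN4R-1 GapmeR2. The 8 markers of later B cells and plasma cells summed to 57.1 to 65.9 CPM in the controls and 72.1 to 78.4 CPM with lnc-RTN4R-1 GapmeR1, the group in which CD79A rose. The part of these shifts in the results below was not tested. In such bulk RNA, fewer cells that express a gene and less of its RNA per cell cannot be told apart.

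The results below turn on 4 of the GapmeRs, shown here with NTC so that their letters can be read beside the genes that moved. Capitals mark the whole oligonucleotide of each targeting GapmeR, which pairs with its target over its full length, and NTC is in lower case.
NTC: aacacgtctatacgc
lnc-NKX2-3-1 GapmeR1: TGCTCTGTGCGGATTG
lnc-NKX2-3-1 GapmeR2: CTGATTTTTAGTAGTG
lnc-RTN4R-1 GapmeR1: GCATTCATGGGTTAAG
lnc-RTN4R-1 GapmeR2: TGCTGAGACATCTAGG
The 2 sites in lnc-NKX2-3-1 lie next to each other in exonic sequence on the plus strand, at chr10:99528207-99528222 for GapmeR1 and chr10:99528191-99528206 for GapmeR2 (GRCh38, GENCODE v44). Those in lnc-RTN4R-1 are also exonic, on the minus strand at chr22:20200478-20200493 for GapmeR1 and chr22:20198858-20198873 for GapmeR2. The genomic span of the 10 genes, introns included, held no match to any of the 8 targeting GapmeRs or NTC with 0 or 1 mismatch. Sites across splice junctions were not searched. With 2 mismatches allowed, BLNK held an exonic match to lnc-ASTN1-1 GapmeR2 and intronic matches to both lnc-TIMM21-5 GapmeRs. SYK held an intronic match to lnc-NKX2-3-1 GapmeR2 and one at an exon edge to lnc-TIMM21-5 GapmeR1. No other matches were found, and these GapmeRs matched 2.96% to 5.14% of 16024 genes scanned at that stringency. For lnc-NKX2-3-1 GapmeR1 and both lnc-RTN4R-1 GapmeRs, which matched 0.518%, 1.23% and 1.77% of genes, no match was found in any of the 10.

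VPREB1, one of the chains that define the surrogate light chain, had 0 counts in all 27 libraries. In a single library, 3 counts correspond to 0.132 CPM at the highest depth and 0.205 CPM at the lowest, so a level under that could be missed there. The 27 libraries held 512518412 counts in all, so for a level shared by all of them the limit is lower than this floor. The floor covers counting error only. Counts regardless of strand were also 0, and none of its 50-base windows occurs in another annotated gene. The gene lies at chr22:22244780-22245515 (plus strand) among immunoglobulin lambda variable segments. Between IGLV4-69, with 700 counts over all libraries, and the lncRNA ENSG00000274422, with 2098, the annotation lists 32 genes with VPREB1, of which 25 had no count and the largest had 4. Most of these are pseudogenes and variable segments. The neighbours beyond, PPM1F and TOP3B, had 52191 and 22511 counts. VPREB1 took no part in the tests below.

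The other 9 genes passed the filter in every library, with at least 195 counts (LYN). Levels between genes were compared per kilobase of merged exons (CPM per kb), each as the mean of 27 samples. CD79A was highest at 451 ± 50.2 CPM per kb (SD, n = 27), close to the mu heavy chain gene IGHM at 396 ± 32.8. IGLL1 followed at 317 ± 31.9, CD79B at 166 ± 12.0 and VPREB3 at 126 ± 21.1. SYK stood at 57.4 ± 3.69, PLCG2 at 24.9 ± 1.76, BTK at 22.2 ± 1.70 and BLNK at 15.4 ± 1.71, and LYN was lowest at 2.15 ± 0.221. Of the neighbours in this order, PLCG2 and BTK did not differ beyond their spread. Per exon length, CD79A, CD79B, IGLL1 and VPREB3 lay above the signalling genes, while VPREB1 was at 0. Merged exons hold every annotated exon of a gene, 567 to 2125 bases for the former and 5210 to 18328 for the latter. The order depends on that length. In CPM alone CD79A (606) stayed highest of the 9 genes, but PLCG2 (457) lay above CD79B (353), SYK (299), IGLL1 (285) and VPREB3 (71.7).

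**Figure D1:**
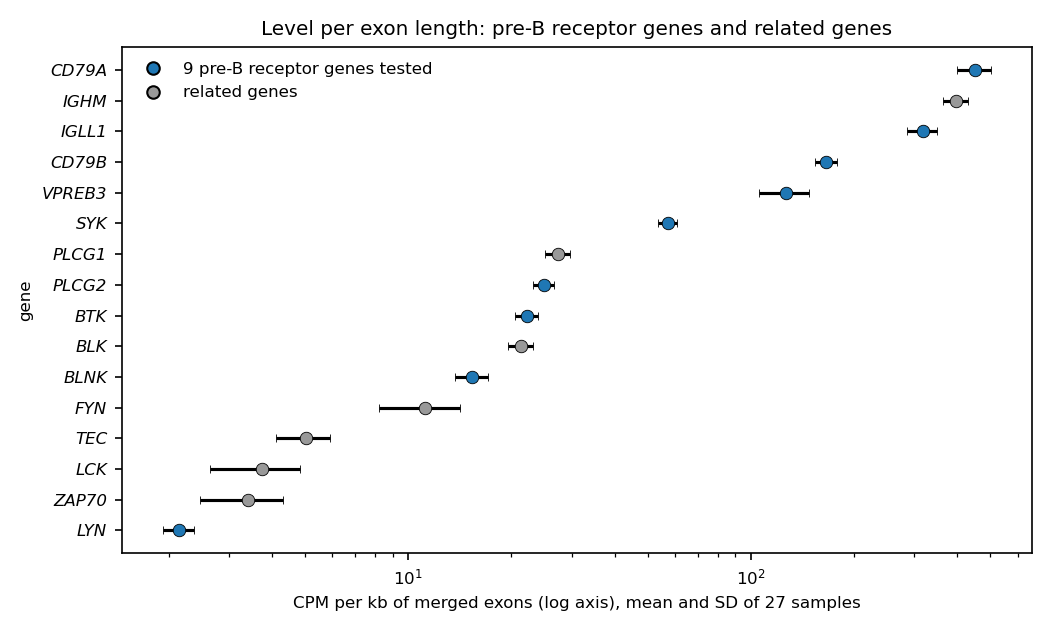
Mean level (points) and SD (bars) over 27 samples in CPM per kb of merged exons, on a log axis, for the 9 pre-B receptor genes tested (blue) and related genes (grey). The chains CD79A, IGLL1, CD79B and VPREB3 lie between 126 and 451, and LYN, at 2.15, lies below BLK at 21.3. VPREB1, at 0 in every sample, is not drawn.

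LYN is usually described as the kinase that starts signalling in B cells, but it was not the leading Src-family transcript here. Per kilobase, BLK was at 21.3 ± 1.79 CPM, FYN at 11.2 ± 2.96 and LCK at 3.74 ± 1.1, all above LYN at 2.15 ± 0.221, while FGR was at 0.0152 ± 0.0154. In CPM alone, BLK (106) and FYN (83.0) were above LYN (13.2), and LCK (12.5) was not. PLCG1, the relative of PLCG2 best known from T cells, was at 27.3 ± 2.25 CPM per kb, and ranges over samples overlapped with those of PLCG2 (23.7 to 33.9 against 22.3 to 29.3). Without the scaling by length, PLCG1 (264 CPM) lay below PLCG2 (457 CPM).

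The 10 groups were first compared in 1 test per gene (edgeR quasi-likelihood F test, Benjamini-Hochberg adjustment over all genes). BTK (adjusted p = 0.000294), VPREB3 (0.00386), SYK (0.0257) and BLNK (0.0436) differed among the groups, which is 4 of 9, where 16.1% of all 16268 genes did. CD79A just missed the threshold at 0.0521, and LYN (0.162), CD79B (0.249), IGLL1 (0.350) and PLCG2 (0.436) did not pass. With replicate number as a block, all 9 passed, beside 48.6% of all genes. BTK kept its call whichever single library was left out. VPREB3 missed the threshold only without lnc-NKX2-3-1 GapmeR1 replicate 2 (adjusted p = 0.0752), SYK without any one of 6 libraries (up to 0.0849, without medium replicate 2), and BLNK without any one of 15 (up to 0.163, without lnc-RTN4R-1 GapmeR2 replicate 2).

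**Figure D2:**
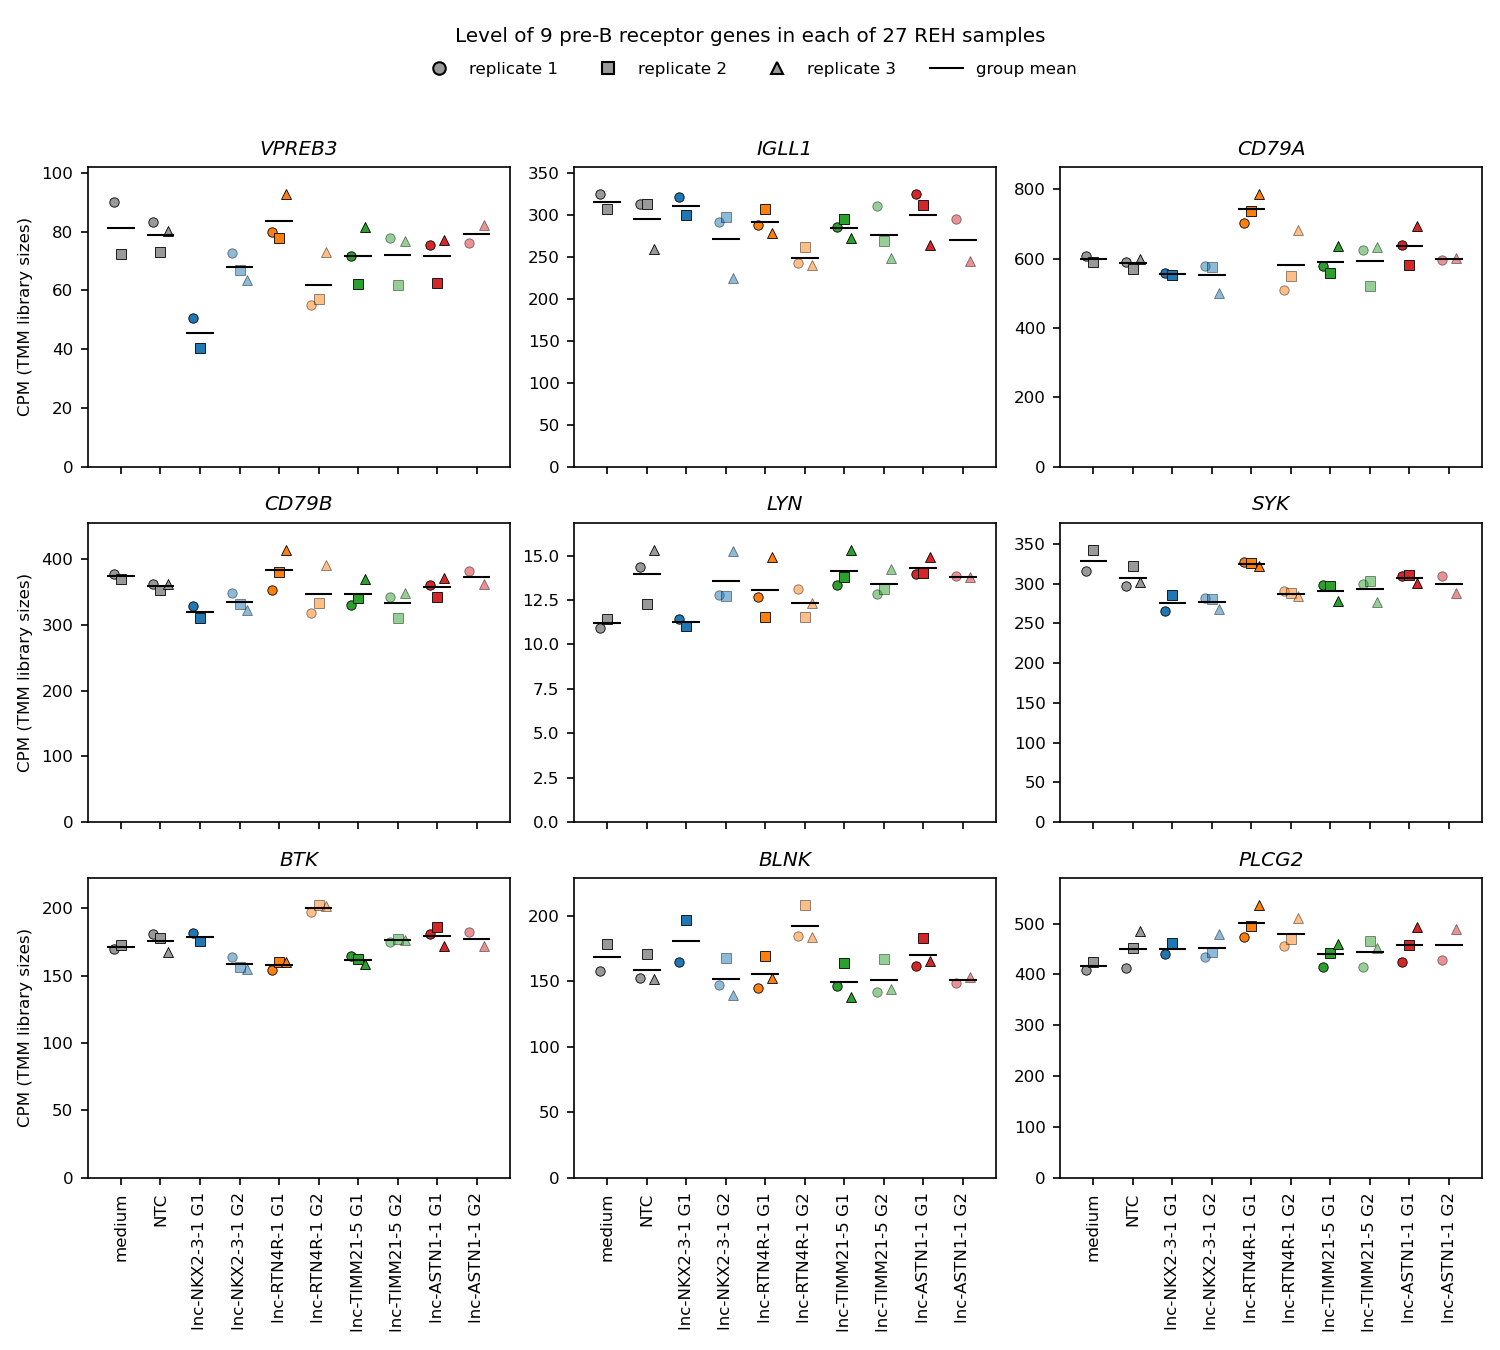
Level in CPM (axis from 0) of the 9 expressed genes in each of the 27 samples, by group, with the replicate number as the marker shape and the group mean as a line; G1 and G2 are GapmeR1 and GapmeR2. VPREB3 was lowest in the 2 samples of lnc-NKX2-3-1 GapmeR1 (40.4 and 50.5 CPM), and BTK was highest in the 3 samples of lnc-RTN4R-1 GapmeR2 (197 to 202 CPM).

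VPREB3 (chr22:23752743-23754425, minus strand) moved most. Its levels were 90.2 and 72.5 CPM in medium and 83.3, 73.0 and 80.2 CPM in NTC. With lnc-NKX2-3-1 GapmeR1 they were 50.5 and 40.4 CPM, and with GapmeR2 against the same lncRNA 72.8, 67.1 and 63.6 CPM. Both GapmeR1 samples lay below every control, a separation seen for 34.9% of all genes, and 2 of the 3 GapmeR2 samples did. VPREB3 fell by 0.81 on the log2 scale with GapmeR1 (SE 0.134, edgeR adjusted p = 8.63e-05), in a comparison that called 19.7% of all genes. The value for GapmeR2 was −0.23 (SE 0.112, adjusted p = 0.813), in a comparison that called only 5 genes, or 0.0307%. With the replicate block this value was −0.25 (adjusted p = 0.0457), beside 3.17% of genes. The difference between both GapmeRs was itself past the threshold, at −0.58 for GapmeR1 against GapmeR2 (SE 0.143, adjusted p = 0.00604), beside 17.8% of genes. It was lost without lnc-NKX2-3-1 GapmeR1 replicate 2 (−0.42, adjusted p = 0.162), which leaves 1 sample in that group.

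With lnc-RTN4R-1 GapmeR2, VPREB3 was at 55.2, 57.0 and 72.9 CPM, the first 2 of which lay below all controls. With GapmeR1 against this lncRNA it was at 79.9, 77.8 and 92.8 CPM, within or above the controls, and the 2 groups did not overlap, as held for 26% of all genes. The fall with GapmeR2 was 0.37 on the log2 scale, past the threshold (log2 fold change −0.37, SE 0.113, edgeR adjusted p = 0.0377), in a comparison that called 9.56% of genes. It was lost without any one of 5 libraries, namely medium replicate 1, NTC replicate 1 or 3, and GapmeR2 replicate 1 or 2 (adjusted p up to 0.174), and with NTC alone (0.0926) or medium alone (0.1003) as controls. GapmeR1 minus GapmeR2 was 0.44 (SE 0.125, adjusted p = 0.0279), beside 9.09% of genes, and missed the threshold without GapmeR1 replicate 1 or 3 or GapmeR2 replicate 1 or 2 (up to 0.145), and with only its own samples fitted (0.0578). The lnc-TIMM21-5 and lnc-ASTN1-1 groups ranged from 61.7 to 82.4 CPM, and none of their 4 GapmeRs passed.

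IGLL1 (chr22:23573125-23580302, minus strand), whose protein forms the surrogate light chain with that of VPREB1, was at 324 and 306 CPM in medium and at 313, 313 and 260 CPM in NTC. Its lowest group was lnc-RTN4R-1 GapmeR2, at 243, 261 and 240 CPM, of which 2 samples lay below all controls. That change was −0.29 (SE 0.0938, edgeR adjusted p = 0.0523) and passed with the replicate block (−0.26, adjusted p = 0.000189). IGLL1 moved with replicate number. It was lower in the sample numbered 3 than in those numbered 1 and 2 in 8 of 8 groups that had both, by a mean of −0.21 on the log2 scale (SD 0.114). Of its 50-base windows, 8.29% also occur in IGLL3P and ENSG00000285968, so its counts are uncertain there.

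For CD79A (chr19:41877279-41881372, plus strand), the highest group was lnc-RTN4R-1 GapmeR1, at 704, 738 and 785 CPM, against 606 and 589 CPM in medium and 591, 570 and 598 CPM in NTC. All 3 samples lay above all 5 controls, as 7.44% of all genes were separated. CD79A rose by 0.33 on the log2 scale (SE 0.0832, edgeR adjusted p = 0.0325), in a comparison that called 2.32% of genes. With GapmeR2 the samples were at 511, 550 and 683 CPM, on both sides of the controls, and the value was −0.02 (adjusted p = 0.917). GapmeR1 minus GapmeR2 was 0.35 (SE 0.0939, adjusted p = 0.0171). The rise with GapmeR1 missed the threshold without any one of 7 libraries, which were medium replicate 1 or 2, NTC replicate 1 or 2 and any GapmeR1 replicate (adjusted p up to 0.212), although the log2 fold change stayed between 0.28 and 0.37, and with NTC alone (0.0842) or medium alone (0.190) as controls. The difference between the GapmeRs was lost without GapmeR1 replicate 3 or GapmeR2 replicate 1 or 2 (up to 0.103), and with only its own samples fitted (0.0959).

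CD79B (chr17:63928738-63932336, minus strand), the partner of CD79A, passed in none of the 8 comparisons of a GapmeR with the controls without the replicate block. Its lowest values came with lnc-NKX2-3-1 GapmeR1, at 329 and 310 CPM, and GapmeR2, at 349, 333 and 323 CPM, where the controls lay between 353 and 378 CPM. All 5 of these samples were below all 5 controls, a separation that held for 1.25% of all genes. For GapmeR1 the log2 fold change was −0.19 (SE 0.0768, edgeR adjusted p = 0.0831), or −0.18 with the replicate block (adjusted p = 0.00992). Of its 50-base windows, 11.1% also occur in ENSG00000285947.

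SYK (chr9:90801787-90898549, plus strand) was lower with both GapmeRs against lnc-NKX2-3-1. It was at 265 and 286 CPM with GapmeR1 and at 282, 281 and 268 CPM with GapmeR2, against 315 and 342 CPM in medium and 297, 323 and 302 CPM in NTC. These 5 samples lay below the 5 controls without overlap, as held for 1.25% of all genes. SYK fell by 0.20 with GapmeR1 (log2 fold change −0.20, SE 0.0588, edgeR adjusted p = 0.0191), and the value for GapmeR2 was −0.19 (SE 0.0511, adjusted p = 0.442; with the replicate block −0.18, adjusted p = 0.00284). Both GapmeRs together gave −0.19 (SE 0.0440, adjusted p = 0.00762), in a comparison that called 5.29% of genes and in which VPREB3 also passed (−0.47, SE 0.0969, adjusted p = 0.00345). Neither call held when only the 10 samples of this comparison were fitted (adjusted p = 0.661 for both), a fit in which 0 of 14850 genes passed. In an exact two-sided permutation test of mean log2 CPM over samples, SYK and CD79B reached p = 0.00794, the smallest that 5 against 5 samples allow, and VPREB3 0.0159, and after adjustment over 36 such tests the values were 0.143, 0.143 and 0.145. With so few samples 2 tests at the smallest p cannot pass that adjustment, and this test takes no account of replicate days. The SYK calls were also lost without medium replicate 2 (−0.15 for GapmeR1, adjusted p = 0.0932; −0.16 for both, 0.0616), without GapmeR1 replicate 1 (−0.13, 0.313; −0.17, 0.0674), and with NTC alone as controls (0.0913 and 0.117). The VPREB3 call over both GapmeRs was lost without GapmeR1 replicate 2 (−0.34, 0.114).

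With the lnc-RTN4R-1 GapmeRs, SYK was at 327, 326 and 322 CPM with GapmeR1, among the controls, and at 290, 288 and 284 CPM with GapmeR2, below all of them. With GapmeR2, 14.9% of all genes were separated from the controls. The value for GapmeR2 was −0.14 (SE 0.0510, edgeR adjusted p = 0.101; with the replicate block −0.13, adjusted p = 0.00816). The GapmeRs did not overlap with each other, as held for 26% of all genes. GapmeR1 minus GapmeR2 was 0.18 (SE 0.0568, edgeR adjusted p = 0.0518, and with the replicate block 0.18, adjusted p = 0.000823). LYN (chr8:55879835-56014169, plus strand) was at 10.9 to 15.3 CPM over all samples and passed in no comparison of 2 groups. Its largest difference was between the controls, at 10.9 and 11.5 CPM in medium and 14.4, 12.3 and 15.3 CPM in NTC (0.32 on the log2 scale, SE 0.118, edgeR adjusted p = 0.886), without overlap, as for 20.2% of genes.

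BTK (chrX:101349338-101390796, minus strand) was at 170 and 173 CPM in medium and 181, 178 and 168 CPM in NTC. With lnc-RTN4R-1 GapmeR2 it was at 197, 202 and 202 CPM, and with GapmeR1 at 154, 160 and 160 CPM. All GapmeR2 samples lay above, and all GapmeR1 samples below, every control, where 14.9% and 7.44% of all genes were separated from the controls. BTK rose by 0.20 on the log2 scale with GapmeR2 (SE 0.0439, edgeR adjusted p = 0.00303). The value for GapmeR1 was −0.14 (SE 0.0444, adjusted p = 0.140; with the replicate block −0.13, adjusted p = 0.0136). GapmeR1 minus GapmeR2 was −0.34 (SE 0.0494, adjusted p = 3.29e-05), and leaving out any single library kept both calls. The rise with GapmeR2 fell just short when only its own samples and the controls were fitted (adjusted p = 0.0521) or with no filter on low counts (0.0765).

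BTK also differed between the lnc-NKX2-3-1 GapmeRs, at 182 and 176 CPM with GapmeR1 and 164, 157 and 155 CPM with GapmeR2 (0.17, SE 0.0550, edgeR adjusted p = 0.0285), without overlap, which held for 46% of genes. There the GapmeR2 samples lay below all controls, as 3.55% of genes were separated (−0.14, adjusted p = 0.634; with the replicate block −0.13, adjusted p = 0.0394). The difference was lost without either GapmeR1 sample (adjusted p = 0.146 and 0.0919), without GapmeR2 replicate 2 (0.0641), with no filter on low counts (0.242), and with only its own samples (0.168).

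BLNK (chr10:96189171-96271587, minus strand), the adaptor that binds BTK and PLCG2, had the same order of groups for lnc-RTN4R-1. It was at 185, 208 and 184 CPM with GapmeR2 and 144, 169 and 152 CPM with GapmeR1, against 157 and 179 CPM in medium and 152, 171 and 152 CPM in NTC. All GapmeR2 samples lay above the controls, as 14.9% of all genes were separated, and GapmeR1 samples lay among or below them. GapmeR1 minus GapmeR2 was −0.31 (SE 0.0919, edgeR adjusted p = 0.0340). The value for GapmeR2 against the controls was 0.25 (SE 0.0817, adjusted p = 0.0580; with the replicate block 0.26, adjusted p = 3.39e-07). The difference between the GapmeRs was lost without GapmeR1 replicate 1 or 3 or GapmeR2 replicate 2 (adjusted p up to 0.165), with only its own samples (0.0572), and with replicates 1 and 2 only (0.109). BLNK overlaps ZNF518A on the opposite strand (82659 and 86267 counts over all libraries) and NPM1P25 on the same strand, and 9.86% of its 50-base windows also occur in these.

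PLCG2 (chr16:81779279-81962685, plus strand) passed in no comparison without the replicate block. Its highest group was lnc-RTN4R-1 GapmeR1, at 474, 495 and 536 CPM, of which 2 samples lay above all controls (408 to 485 CPM), and the value was 0.20 (SE 0.0688, edgeR adjusted p = 0.180). With the replicate block the values for GapmeR1 (0.18, adjusted p = 0.000158) and GapmeR2 (0.12, adjusted p = 0.00863) passed. Like IGLL1 it moved with replicate number, in the other direction, and was higher in the sample numbered 3 in 8 of 8 groups, by a mean of 0.14 on the log2 scale (SD 0.0468). SYK was lower in the sample numbered 3 in 8 of 8 groups (mean −0.07, SD 0.0393), and VPREB3 (0.15), CD79A (0.11) and LYN (0.14) were higher in 7 of 8. Medium and lnc-NKX2-3-1 GapmeR1 have no sample numbered 3. With replicates 1 and 2 only, the lnc-NKX2-3-1 GapmeR1 values were −0.80 for VPREB3 and −0.20 for SYK (edgeR adjusted p = 0.000196 and 0.00697). Of the 50-base windows of PLCG2, 24.0% also occur in ENSG00000289733 or RN7SKP176.

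Over all 8 GapmeRs, 5 of 72 gene-by-GapmeR values passed against the controls, all with lnc-NKX2-3-1 GapmeR1 or the lnc-RTN4R-1 GapmeRs. Of the 9 genes, the counts were 2 for lnc-NKX2-3-1 GapmeR1 (19.7% of all genes called), 1 for lnc-RTN4R-1 GapmeR1 (2.32%) and 2 for its GapmeR2 (9.56%). These comparisons share the 5 control samples. Over both GapmeRs of a lncRNA, 2 of 36 values passed, SYK and VPREB3 for lnc-NKX2-3-1 as above, and none for lnc-RTN4R-1, where VPREB3 and IGLL1 (down) and BLNK and PLCG2 (up) passed with the replicate block, beside 15.6% of genes. With the block, SYK also passed over both lnc-TIMM21-5 GapmeRs (−0.10, edgeR adjusted p = 0.0493), beside 2.62% of genes, and CD79B joined SYK and VPREB3 for lnc-NKX2-3-1 (−0.15, adjusted p = 0.00631), beside 18.9%. For both lnc-ASTN1-1 GapmeRs together none of the 9 passed with the block, where 3.01% of genes did. Of the 72 values for single GapmeRs, 16 passed with the replicate block, of which 6 came with lnc-RTN4R-1 GapmeR2, in a comparison that then called 26.3% of genes. Between medium and NTC none of the 9 passed, and neither did any gene in edgeR or in DESeq2, while 575 genes (3.53%) had an unadjusted p under 0.05. In edgeR 11 genes (0.0676%) passed with the replicate block, none of the 9 among them, and 96 passed with no filter on low counts. None of the 9 passed in edgeR with any single one of the 4 GapmeRs against lnc-TIMM21-5 and lnc-ASTN1-1, with or without the block, and their values lay between −0.17 and 0.16 on the log2 scale. Those comparisons called few genes of any kind. The lnc-TIMM21-5 GapmeRs changed 0.209% (GapmeR1) and 0.0676% (GapmeR2) of all genes, and the lnc-ASTN1-1 GapmeRs 1.2% and 0.0184%, or 2.98%, 0.584%, 4.77% and 0.135% with the block. Both GapmeRs together changed 0.166% and 0.664% of genes for these lncRNAs, and 4.66% for lnc-RTN4R-1. None of the 9 differed between the GapmeRs against lnc-TIMM21-5 or between those against lnc-ASTN1-1, where 0.141% and 0.553% of genes did.

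**Figure D3:**
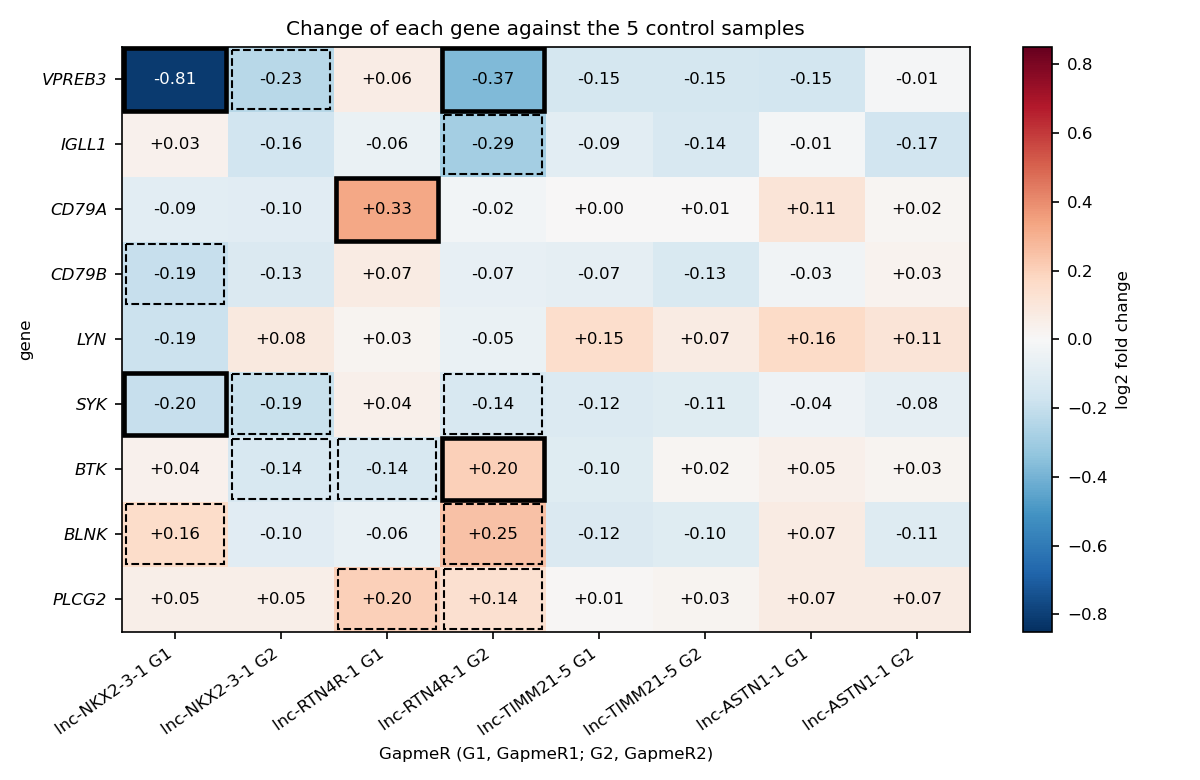
Log2 fold change of each gene with each GapmeR against the 5 control samples (colour and printed value). Solid frames mark values with an edgeR adjusted p under 0.05, and dashed frames those that passed only with replicate number as a block. The darkest cell is VPREB3 with lnc-NKX2-3-1 GapmeR1 (−0.81), and the lnc-TIMM21-5 and lnc-ASTN1-1 columns hold no frame.

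Because the replicates were made on different days, GapmeR1 and GapmeR2 were also compared within replicate number. For lnc-RTN4R-1 the log2 differences of BTK were −0.35, −0.34 and −0.33, those of BLNK −0.36, −0.30 and −0.27, and those of SYK 0.17, 0.18 and 0.18. For VPREB3 they were 0.53, 0.45 and 0.35, and for CD79A 0.46, 0.42 and 0.20. Each kept 1 sign in the 3 pairs, so that BTK and BLNK were lower, and VPREB3, CD79A and SYK higher, with GapmeR1 than with GapmeR2 on each day. So did IGLL1 (0.25, 0.23 and 0.21), CD79B (0.15, 0.19 and 0.08) and PLCG2 (0.05, 0.07 and 0.07), all higher. LYN alone changed sign (−0.05, −0.0011 and 0.27). The share of all genes that kept 1 sign is not given here. For BTK, BLNK, VPREB3, CD79A and SYK the GapmeR1 and GapmeR2 samples did not overlap, so any pairing had to keep the sign. With the replicate block, 7 of the 9 genes differed between these GapmeRs, beside 26.3% of genes, including IGLL1 (0.23, edgeR adjusted p = 0.00206) and CD79B (0.14, adjusted p = 0.0435). For lnc-NKX2-3-1, which had 2 such pairs, VPREB3 differed by −0.53 and −0.73 and BTK by 0.15 and 0.17. BLNK differed by 0.16 and 0.23, and passed with the block (0.22, adjusted p = 0.000157; without it 0.0884), beside 33.4% of genes.

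**Figure D4:**
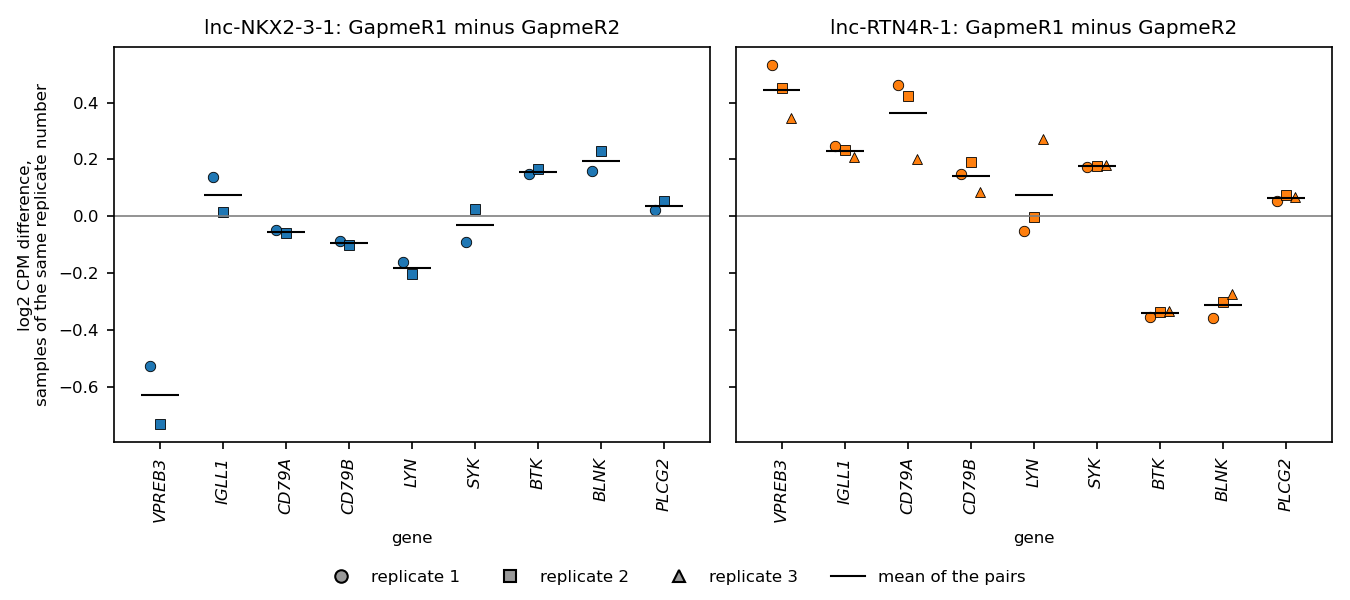
Log2 CPM difference between GapmeR1 and GapmeR2 in samples of the same replicate number, for lnc-NKX2-3-1 (2 pairs) and lnc-RTN4R-1 (3 pairs), with the mean of the pairs as a line. For lnc-RTN4R-1, BTK and BLNK lie below 0 and VPREB3, CD79A, SYK, IGLL1, CD79B and PLCG2 above 0 in all 3 pairs. For lnc-NKX2-3-1, BTK, BLNK, IGLL1 and PLCG2 lie above 0 and VPREB3, CD79A, CD79B and LYN below 0 in both pairs.

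Across the 10 group means of log2 CPM, CD79B went with SYK (Pearson r = 0.89), VPREB3 (0.83) and CD79A (0.71). VPREB3 went with SYK (0.76), CD79A with SYK (0.73), and BTK with BLNK (0.76). The lowest values were −0.61 for LYN and BLNK, −0.59 for VPREB3 and BLNK, −0.43 for IGLL1 and PLCG2, and −0.38 for BTK and VPREB3. These values describe 10 means that share replicate days, and they were not tested. Over the same means, the genes most like BTK were IFIT1 (r = 0.97) and RETSAT (0.96), those most like VPREB3 were NRTN (0.99) and ADARB2 (0.97), and those most like SYK were GOT2 (0.95) and GLUL (0.95), among 16267 genes compared. An r over 0.9 was reached by 32 genes for BTK, 247 for VPREB3 and 8 for SYK, so the named genes were not alone.

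The promoters of the genes that differed between the lnc-RTN4R-1 GapmeRs are shown for comparison, as 250 bases before to 50 bases after the start site, 5′ to 3′ on the strand of the gene, from RefSeq (GRCh38.p14). Capitals mark letters of binding motifs of B-cell factors on either strand: CCCNNGGG (the core of the EBF1 site), the E-box CAGGTG, the RUNX site TGTGGT, the ETS site CGGAAG and the octamer ATTTGCAT.
VPREB3, chr22:23754376-23754675, minus strand: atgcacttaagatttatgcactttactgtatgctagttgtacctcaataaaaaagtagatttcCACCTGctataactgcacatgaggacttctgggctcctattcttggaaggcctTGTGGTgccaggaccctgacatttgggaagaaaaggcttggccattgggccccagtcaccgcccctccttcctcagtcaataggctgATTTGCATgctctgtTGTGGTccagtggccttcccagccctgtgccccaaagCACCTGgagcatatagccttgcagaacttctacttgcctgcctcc
CD79A, chr19:41877029-41877328, plus strand: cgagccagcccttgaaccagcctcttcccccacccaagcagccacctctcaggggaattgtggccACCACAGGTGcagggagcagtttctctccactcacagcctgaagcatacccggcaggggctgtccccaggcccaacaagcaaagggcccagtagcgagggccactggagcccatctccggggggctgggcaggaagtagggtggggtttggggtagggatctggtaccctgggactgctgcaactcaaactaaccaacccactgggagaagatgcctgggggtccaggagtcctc
BTK, chrX:101390747-101391046, minus strand: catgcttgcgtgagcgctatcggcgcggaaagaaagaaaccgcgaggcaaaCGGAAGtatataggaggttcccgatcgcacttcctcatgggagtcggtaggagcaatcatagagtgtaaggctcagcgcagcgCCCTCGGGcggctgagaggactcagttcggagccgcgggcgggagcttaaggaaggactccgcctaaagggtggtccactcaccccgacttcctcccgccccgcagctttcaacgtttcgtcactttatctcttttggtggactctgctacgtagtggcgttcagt
BLNK, chr10:96271520-96271819, minus strand: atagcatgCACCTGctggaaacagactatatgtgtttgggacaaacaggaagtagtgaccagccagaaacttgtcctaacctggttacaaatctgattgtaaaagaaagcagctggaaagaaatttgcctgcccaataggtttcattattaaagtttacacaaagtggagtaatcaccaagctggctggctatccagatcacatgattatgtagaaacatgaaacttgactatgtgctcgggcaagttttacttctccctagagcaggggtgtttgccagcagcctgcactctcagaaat
The VPREB3 promoter held the octamer (first base at −47, with the start site counted as 0), 2 RUNX sites at −134 and −32 and 2 E-boxes at −187 and 5. Among 34796 promoters, 1.76% held the octamer, 13.1% the RUNX letters and 20.6% the E-box. CD79A held an E-box and a RUNX site that share 2 bases, at −181 and −185. BTK held the EBF1 core at −116 and the ETS letters at −199, which 19.1% and 19.4% of promoters hold, and BLNK 1 E-box at −242. No motif was common to the 4.

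The rest of the pathway was followed with a list of 58 other genes of B-cell receptor signalling, of which 55 passed the filter and CR2, FCGR2B and FGR did not. In the 10-group test 24 of the 55 differed (43.6%, beside 16.1% of all genes), and 51 (92.7%) with the replicate block, beside 48.6%. Against the controls, lnc-NKX2-3-1 GapmeR1 changed 22 of the 55, 9 up and 13 down, beside 19.7% of all genes (median log2 fold change −0.05; −0.0040 over all genes). For lnc-RTN4R-1, GapmeR1 changed 9 (8 up and 1 down, beside 2.32% of all genes, median 0.10; −0.00046 over all genes) and GapmeR2 changed 8 (5 up and 3 down, beside 9.56%, median 0.08; 0.0055 over all genes). With the replicate block these 3 counts were 33, 20 and 26, where 35.8%, 8.8% and 26.3% of all genes were called. The other 5 GapmeRs changed between 0 and 2 each without the block. With it lnc-ASTN1-1 GapmeR1 changed 13 (10 up and 3 down, beside 4.77% of all genes), lnc-NKX2-3-1 GapmeR2 and lnc-TIMM21-5 GapmeR1 5 each, lnc-TIMM21-5 GapmeR2 2 and lnc-ASTN1-1 GapmeR2 1. NTC against medium gave a median of 0.10 for this list too, with 44 of the 55 values positive and none past the threshold.

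The 5 genes of this list with the smallest adjusted p-values among the groups were FYN, GAB2, TEC, INPP5D and VAV1. FYN, a Src-family kinase, was at 33.3, 35.3 and 44.4 CPM with lnc-RTN4R-1 GapmeR1 and at 51.9 and 45.9 CPM with lnc-NKX2-3-1 GapmeR1, against 79.0 to 103 CPM in the controls, with no overlap. Such a separation held for 7.44% and 34.9% of all genes in these comparisons. FYN fell by 1.24 (SE 0.125, edgeR adjusted p = 6.11e-07) and by 0.86 (SE 0.141, adjusted p = 8.80e-05) on the log2 scale. It did not pass with GapmeR2 against either lncRNA, with values of 0.04 in each case (adjusted p = 0.878 and 0.961). The adaptor GAB2 fell by 0.97 with lnc-NKX2-3-1 GapmeR1 (87.3 and 80.1 CPM against 154 to 182 CPM in the controls, adjusted p = 5.13e-09). The phosphatase INPP5D, which restrains the pathway, rose by 0.66 with the same GapmeR (320 and 335 CPM against 188 to 220 CPM, adjusted p = 7.26e-08). VAV1, an exchange factor downstream of SYK, rose by 0.41 with it (211 and 219 CPM against 154 to 174 CPM, adjusted p = 2.63e-05).

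TEC, a kinase of the BTK family, was at 20.9 to 24.3 CPM in the controls. It rose with lnc-NKX2-3-1 GapmeR1 (30.5 and 27.9 CPM, 0.34, edgeR adjusted p = 0.00389) and fell with GapmeR2 against the same lncRNA (16.6, 13.7 and 17.3 CPM, log2 fold change −0.54, adjusted p = 0.00338). The difference between these GapmeRs was 0.88 (SE 0.0896, adjusted p = 8.92e-08). TEC also fell with lnc-TIMM21-5 GapmeR1 (−0.43, adjusted p = 0.00664) and over both GapmeRs against lnc-TIMM21-5 (−0.37, 0.00411), lnc-ASTN1-1 (−0.31, 0.0152) and lnc-RTN4R-1 (−0.21, 0.0489). Every lnc-TIMM21-5 and lnc-ASTN1-1 sample lay below all controls, but the share of all genes separated in this way is not given here. IGHM, the heavy chain of the receptor, ranged from 647 to 877 CPM over the samples and missed the threshold in the 10-group test (adjusted p = 0.0883; 0.000181 with the replicate block).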

How the data were processed

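RNA of 27 REH samples was sequenced. The authors aligned reads to hg38 with STAR and deposited its raw gene counts, not normalised, in 3 columns. These are counts regardless of strand and for each strand orientation. The annotation release is not given in the sources used here. The labels describe ribodepletion and the methods poly-A selection. Reads mapped to several places were not counted. The column with the strand of the genes (95.27% of both strand columns) was used. GENCODE v44 matched 56434 of 60619 identifiers.

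All samples were fitted together by group with edgeR 4.0.16 (R 4.3.3), using TMM normalisation, filterByExpr (minimum count 10, minimum total 15) and robust quasi-likelihood F tests, with Benjamini-Hochberg adjustment over 16268 genes and a threshold of 0.05. Controls and GapmeR pairs were weighted by sample number, and standard errors came from the F statistics. CPM were computed on TMM-scaled libraries, with a prior count of 2 on the log2 scale. The fits were tested on simulated data. The genes and lists were chosen with earlier results of these data known. The text names all 10 genes, the 4 targets, IGHM, the fixed markers, the 5 genes of the pathway list with the smallest 10-group p-values, and the genes most like the 3 leading members.

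Replicate numbers were taken to mark days, per the study's methods. The mean correlation of deviations from the group means was 0.263 for 109 pairs of samples that shared a number and −0.13 for 218 other pairs, and 24 of 27 samples correlated best with their own number. The fit with replicate number as a block was an alternative, beside DESeq2 1.42.0, RLE normalisation, other low-count filters, unstranded counts, NTC or medium alone as controls, fits of a comparison's own samples, replicates 1 and 2 only, and each library left out. After seeing the data, replicates 1 and 2 only with the block was added. GapmeR sequences were read from the study's oligonucleotide list and matched to the genomic spans of GENCODE v44 genes on GRCh38.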

Additional observations from a re-analysis of the deposited data

Results flagged for a closer look

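In 6 cases a gene of the pre-B receptor group differed between both GapmeRs against the same lncRNA, by the edgeR test of that difference. These were 2 of 9 genes for lnc-NKX2-3-1, where 17.8% of all genes differed, and 4 of 9 for lnc-RTN4R-1, where 9.09% did, so the count for lnc-NKX2-3-1 is near its background. The log2 differences, GapmeR1 minus GapmeR2, were 0.17 for BTK and −0.58 for VPREB3 with lnc-NKX2-3-1 (adjusted p = 0.0285 and 0.00604). With lnc-RTN4R-1 they were −0.34 for BTK (adjusted p = 3.29e-05), −0.31 for BLNK (0.0340), 0.35 for CD79A (0.0171) and 0.44 for VPREB3 (0.0279). BTK and VPREB3 differed for both lncRNAs. The GapmeR numbers are labels within each lncRNA, so the signs cannot be compared between lncRNAs. The mean level of each target was below the controls with both of its GapmeRs. Why the GapmeRs differed was not tested. Within replicate number, all 6 differences kept their sign in each of the 2 or 3 pairs. The GapmeR1 and GapmeR2 samples did not overlap in any of these cases, so any pairing had to keep the sign.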

How the results depend on the processing

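Of the comparisons of single GapmeRs with the controls, 5 passed, against 10 with DESeq2, 16 with the replicate block, 2 with NTC alone and 3 with medium alone as controls, and 17 with replicates 1 and 2 only with the block. The calls over all genes moved with the setting too. For lnc-RTN4R-1 GapmeR2 they were 1555 of 16268, against 1782 with DESeq2 and 4278 with the block. They were 1151 with NTC alone, 925 with medium alone, and 3074 of 16461 with replicates 1 and 2 only with the block. Over both GapmeRs of a lncRNA 2 passed, against 1 with no filter on low counts, 8 with the block, 5 with replicates 1 and 2 only, 1 with NTC alone, 0 with only the samples of the comparison and 9 with replicates 1 and 2 only with the block. Over all genes, the lnc-NKX2-3-1 pair called 860 of 16268, against 939 of 34666 with no filter and 3071 with the block. It called 1869 of 16461 with replicates 1 and 2 only, and 3485 of 16461 with the block added. With NTC alone it called 548, and 0 of 14850 with own samples only. Between the GapmeRs of a lncRNA 6 passed, against 10 with the block, 2 with own samples only and 10 with replicates 1 and 2 only with the block. For lnc-RTN4R-1 the calls over all genes were 1479 of 16268, 4275 of 16268, 882 of 14904 and 2701 of 16461 in the same order. Among the 10 groups 4 genes passed, against 9 and 8 with the block on all or 2 replicates, and for the pathway list 24, against 51 and 43. Over all genes these fits called 2622 of 16268, 7908 of 16268 and 6702 of 16461. Leaving out each library gave 2 to 5 genes among the groups, 3 to 7 for single GapmeRs, 1 to 3 over both, 3 to 7 between GapmeRs and 16 to 25 of the pathway list, and 0 in each case between medium and NTC. For the values of the 9 genes that passed in the main fit and have a direction, none reversed in any setting. The directions of values that did not pass were not checked in this way. The call of VPREB3 with lnc-NKX2-3-1 GapmeR1 held in all 11 settings and all 27 fits without a library, and that of BTK between the lnc-RTN4R-1 GapmeRs in all 9 and all 27. SYK lost its calls with no filter (adjusted p = 0.416 among the groups, 0.263 for lnc-NKX2-3-1 GapmeR1 and 0.123 for both), the GapmeR1 call also with own samples only (0.119), and BLNK that among the groups with replicates 1 and 2 only (0.240). The cause was not tested. The added fit of replicates 1 and 2 with the block was chosen after seeing the data.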
